A study of Homo sapiens with 6 samples.

Results

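The genes described here are 43 genes of the tricarboxylic acid (TCA) cycle, of acetyl-CoA supply and of fatty acid synthesis and oxidation, chosen by name from the 58735 genes of the deposited expression table. They were sorted by the step they serve: 18 in the TCA cycle with its cytosolic partner enzymes and anaplerosis, 4 in acetyl-CoA supply from citrate and acetate, 12 in fatty acid synthesis, elongation, desaturation and activation, and 9 in mitochondrial fatty acid oxidation. The rule that names them uses no expression value, although earlier results of these libraries were known when they were listed.

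RNA-seq was performed on HGC-27 cells, an established line from an undifferentiated human gastric carcinoma, and the study asked which genes respond to depletion of ACAT2. The shNC group of 3 libraries came from cells labelled WT and transfected with pSIH-H1-Puro-shNC, and the shACAT2 group of 3 libraries from ACAT2 knockdown cells transfected with pSIH-H1-Puro-shACAT2. Both groups carried a hairpin vector, were transfected for 24 h and were then kept under puromycin for 7 days in RPMI medium with serum, so the comparison holds the vector and the selection in common. The labels do not say which hairpin was used, and all libraries came from a single line. Each library held 14086416 to 16067486 fragments on genes. The submitters call the libraries biological replicates, yet shNC-2 and shNC-3 were far more alike than any other pair of a group, with a chi-square per gene of 1.75 against 13.7 to 52.3, and separate cultures are not stated. The epithelial markers EPCAM, KRT8, KRT18, KRT19 and CDH1 lay at or below 1.15 FPKM in every library although the label is gastric cancer cells, with CDH1 at 0.12 to 0.222 FPKM in shNC and 0.608 to 1.15 FPKM in shACAT2. VIM, an intermediate filament of mesenchymal cells, lay at 246 to 292 FPKM in shNC and 340 to 461 FPKM in shACAT2. CDH2, the other mesenchymal marker listed, did not exceed 0.0808 FPKM in any library. Of the markers of other cell types, COL1A1 ranged from 57.9 to 67.0 FPKM in shNC and from 108 to 139 FPKM in shACAT2, and DCN from 8.08 to 8.17 FPKM and from 11.2 to 12.9 FPKM. Those of leukocytes, endothelium, adipocytes and hepatocytes did not exceed 0.257 FPKM, and the part of VIM, CDH1 and the fibroblast markers in the results was not tested.

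ACAT2, the thiolase that joins acetyl-CoA units to acetoacetyl-CoA in the cytosol, stands where acetyl-CoA leaves for sterol synthesis. Citrate made by citrate synthase in the mitochondrion can be exported, cleaved by ATP citrate lyase to cytosolic acetyl-CoA, carboxylated to malonyl-CoA by acetyl-CoA carboxylase and built into palmitate by fatty acid synthase. Malonyl-CoA is also the known inhibitor of carnitine palmitoyltransferase, which admits long-chain fatty acids to mitochondria for oxidation, so synthesis and oxidation share a control point in most tissues.

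ACAT2 itself (chr6:159760328-159779055, plus strand, GRCh38) was measured at 14.2, 11.7 and 12.7 FPKM (fragments per kilobase of gene, scaled to sequencing depth) in the 3 shNC libraries and at 6.19, 5.46 and 6.05 FPKM in the shACAT2 libraries. All shACAT2 libraries lay below all shNC libraries. The log2 fold change on log2(FPKM + 1) was -1.01 ± 0.10 (SE, n = 3 per group) with a limma adjusted p of 0.00594, which became 0.0512 without shNC-3 and stayed under 0.05 without any other single library. Exons of ACAT2 overlap those of SOD2, TCP1 and SOD2-OT1 on the opposite strand, and the strand setting of the counting is not given in the sources used here.

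Among the metabolic genes, ACACA, the cytosolic acetyl-CoA carboxylase, fell to 0.520 of its shNC level, and CPT1A, the liver-type carnitine palmitoyltransferase of the outer mitochondrial membrane, rose to 1.61 times its shNC level. In bulk libraries, fewer cells that express a gene and less RNA per cell cannot be told apart. These were the 2 of 41 members tested that passed limma at an adjusted p under 0.05, or 4.88%, against 5.1% of the 13832 genes tested in the whole table (706 genes, with 1.81% of all genes tested lower and 3.3% higher in shACAT2). ACSS1 and ELOVL5 had a mean under 1 FPKM in both groups and were not tested. At an unadjusted p under 0.05 there were 6 members, 1 higher and 5 lower, or 14.6% against 23.5% of all genes. The groups did not overlap for 11 members, 3 above and 8 below, or 26.8% against 30.7% of all genes. The shares of members that passed were thus close to or under those of the whole table, and the median log2 fold change was 0.02 over the members and 0.02 over all genes.

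**Figure D1:**
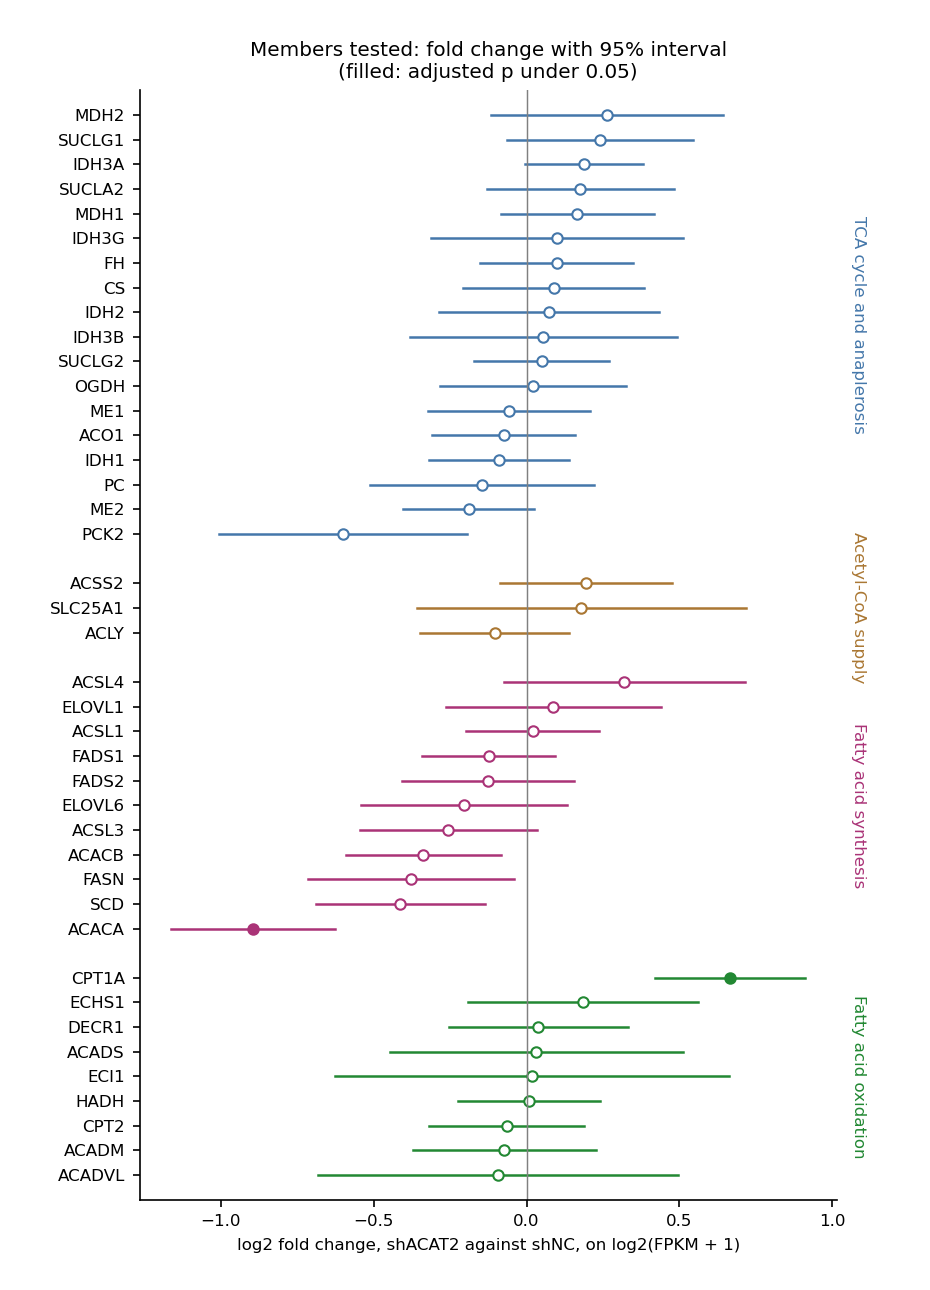
Log2 fold change of shACAT2 against shNC on log2(FPKM + 1) for the 41 members tested, grouped by step; points are limma estimates from 3 libraries per group, bars are 95% intervals and filled points passed an adjusted p of 0.05. Only ACACA (-0.89) and CPT1A (0.67) are filled, and 8 of the 11 genes of fatty acid synthesis lie left of 0.

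In fatty acid synthesis, 8 of the 11 genes tested had a fold change below 0 and 3 above (27.3%, against 52.3% of all genes tested). The median was -0.20, negative under every alternative (-0.32 to -0.01). ACACA was the 1 gene of the step that passed the adjusted test. At an unadjusted p under 0.05, 4 genes (ACACA, SCD, ACACB and FASN) were lower in shACAT2, or 36.4% of the step, against 10.7% of all genes tested that were lower at that level. These are few genes, and the step was not tested as a group. In each library, the median difference of the step from the shNC mean on log2(FPKM + 1) lay between -0.03 and 0.02 in shNC and was -0.16, -0.20 and -0.20 in shACAT2-1, -2 and -3. Since each gene's shNC mean was subtracted, the shNC values centre near 0 by construction. Other genes listed for this step, outside the members, did not share the lower values. Of these, 22 were tested, 13 with a fold change above 0 and 9 below, with a median of 0.06. At an unadjusted limma p under 0.05, 9.09% of them were lower.

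ACACA makes malonyl-CoA, the building unit of fatty acids. It lies on chromosome 17 (chr17:37084988-37406818, minus strand, GRCh38). Its level was 22.1, 22.5 and 21.7 FPKM in the shNC libraries and 9.82, 12.5 and 12.1 FPKM in the shACAT2 libraries. The lowest shNC library lay well above the highest shACAT2 library, and each value rested on 1940 to 4866 fragments. The log2 fold change was -0.89 ± 0.11 (SE, n = 3 per group, 95% interval -1.16 to -0.63) with a limma adjusted p of 0.0107. By p, ACACA ranked 131 among all genes tested. The exact permutation test over libraries gave p = 0.1, the smallest value that 3 against 3 allow. ACACA shares no exon bases with another annotated gene.

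ACACB, the carboxylase isoform of the outer mitochondrial membrane, was far less abundant at 1.70, 1.62 and 1.67 FPKM in shNC and 1.10, 1.14 and 1.09 FPKM in shACAT2. These groups did not overlap either, and the difference was -0.34 ± 0.11 on the log2 scale (SE, n = 3 per group) with a limma adjusted p of 0.122. At this level the added 1 FPKM compresses the change: the ratio of means was 0.666. With a pseudocount of 0.1 the log2 fold change was -0.55, still with a limma adjusted p of 0.114. Limma-voom on the recovered fragments (237 to 418 per library) gave a log2 fold change of -0.64 with an adjusted p of 0.0159. ACACB passed in only this 1 of 16 alternatives. The ratio of ACACA to ACACB, a ratio chosen after the values were seen, was 13.0, 13.9 and 13.0 in shNC and 8.94, 11.0 and 11.1 in shACAT2.

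FASN, the multienzyme that builds palmitate from malonyl-CoA, gave 119.9, 104.6 and 103.7 FPKM in shNC and 97.5, 83.7 and 71.9 FPKM in shACAT2. Every shACAT2 value was below every shNC value, but the gap between the groups was smaller than the range within shACAT2. Its log2 fold change of -0.38 ± 0.14 (SE, n = 3 per group) had a limma adjusted p of 0.169.

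SCD, the desaturase that makes oleate and palmitoleate, was the most abundant member, at 424.7, 377.7 and 374.7 FPKM in shNC and 283.7, 277.4 and 322.6 FPKM in shACAT2. The groups were again apart, with a log2 fold change of -0.41 ± 0.12 (SE, n = 3 per group) and a limma adjusted p of 0.0953. The pseudogene SCDP1 reached at most 0.493 FPKM.

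**Figure D2:**
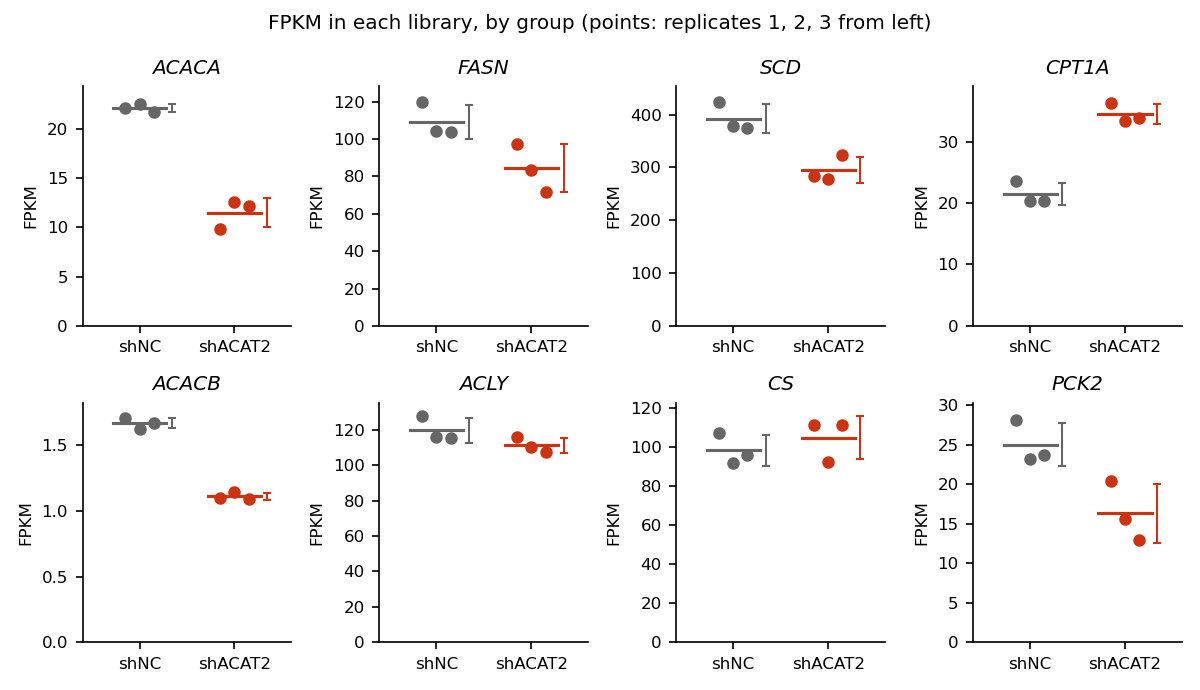
FPKM of ACACA, FASN, SCD, CPT1A, ACACB, ACLY, CS and PCK2 in each library, each panel on its own axis from 0; points are replicates 1 to 3 from left, horizontal lines group means and bars the SD of 3 libraries. The groups are apart for ACACA, FASN, SCD, CPT1A, ACACB and PCK2 and overlap for ACLY and CS.

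The other desaturases, FADS1 and FADS2, which insert double bonds nearer the carboxyl end, had log2 fold changes of -0.12 and -0.13 with adjusted p of 0.468 and 0.575 by limma, and their exons overlap each other on opposite strands. Of the elongases, ELOVL1, which extends saturated very long chains, gave 0.09 and ELOVL6, which extends palmitate, gave -0.20. ELOVL5, which extends polyunsaturated chains, was represented by 8, 21 and 10 fragments in shNC and 1, 2 and 3 fragments in shACAT2, too few for a statement on its level. The acyl-CoA synthetases, which activate free fatty acids, differed in sign: ACSL3 had -0.26 (adjusted p = 0.262 by limma), ACSL1 0.02, negative under library-size and upper-quartile scaling, and ACSL4, which prefers arachidonate, 0.32 (adjusted p = 0.30 by limma). ACSL4 read 4.86, 6.70 and 6.19 FPKM in shNC and 5.92, 8.74 and 8.35 FPKM in shACAT2. In both groups the first library was the lowest, the groups overlapped, and once replicates were blocked by number, the limma adjusted p of ACSL4 was 0.0458.

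In mitochondrial fatty acid oxidation, 9 genes were tested, 6 with a fold change above 0 (66.7%, against 52.3% of all genes tested) and 3 below. The median of 0.02 ran from -0.06 to 0.22 over the alternatives. It was negative with library-size scaling, upper-quartile scaling over shared genes, limma-voom and averaging of shNC-2 with shNC-3, and also without shNC-2, without shNC-3 or without shACAT2-1. CPT1A was the 1 gene of the step that passed. Its level was 23.5, 20.4 and 20.4 FPKM in shNC and 36.4, 33.4 and 33.9 FPKM in shACAT2. All shACAT2 libraries lay above all shNC libraries, on 2169 to 3643 fragments per library. The log2 fold change was 0.67 ± 0.10 (SE, n = 3 per group, 95% interval 0.42 to 0.91) with a limma adjusted p of 0.0198 and a rank of 258 by p. CPT1A lies on chromosome 11 (chr11:68754620-68844410, minus strand, GRCh38) and shares no exon bases with another annotated gene.

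CPT1A and ACACA stand on either side of malonyl-CoA, and their ratio, chosen after the values were seen, was 1.06, 0.904 and 0.940 in the shNC libraries and 3.70, 2.67 and 2.79 in the shACAT2 libraries. A ratio within a library does not depend on how that library was scaled. These values repeat the changes of both genes and are no separate evidence.

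Downstream of CPT1A, the remaining 8 genes of oxidation had log2 fold changes from -0.09 to 0.18, and none passed. CPT2, which regenerates acyl-CoA inside the mitochondrion, had -0.06. The acyl-CoA dehydrogenases, which take the first oxidation step on very long, medium and short chains, had -0.09 for ACADVL, -0.07 for ACADM and 0.03 for ACADS. ECHS1, which hydrates the enoyl-CoA, had 0.18, and HADH, which oxidises the hydroxyl group, had 0.01. ECI1 and DECR1, which handle unsaturated chains, had 0.02 and 0.04. The signs of CPT2, ACADVL, ACADM, ACADS, HADH, ECI1 and DECR1 each turned under at least 1 alternative.

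Cytosolic acetyl-CoA supply showed no gene past the test among the 3 tested, where 5.1% of all genes tested passed. ACLY, which cleaves citrate in the cytosol, gave 127.8, 116.1 and 115.0 FPKM in shNC and 115.8, 110.3 and 107.5 FPKM in shACAT2. The groups overlapped, and the log2 fold change of -0.10 ± 0.10 (SE, n = 3 per group) had a limma adjusted p of 0.596 and a 95% interval of -0.35 to 0.14. SLC25A1, the citrate exporter of the inner mitochondrial membrane, had 0.18 ± 0.23, the 3 shACAT2 libraries reading 73.6, 53.2 and 38.2 FPKM around shNC values of 44.6 to 51.3 FPKM.

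ACSS2, which makes cytosolic acetyl-CoA from acetate, gave 3.50, 3.33 and 3.09 FPKM in shNC and 4.67, 3.34 and 3.85 FPKM in shACAT2. The second shACAT2 library lay within the shNC range, and the log2 fold change was 0.19 ± 0.12 (SE, n = 3 per group, limma adjusted p = 0.376). ACSS1, its mitochondrial counterpart, lay under the filter at 0.549, 0.348 and 0.367 FPKM in shNC and 0.909, 0.969 and 0.721 FPKM in shACAT2. Its groups did not overlap, the ratio of means was 2.06 on 49 to 140 fragments per library, and without the filter the log2 fold change was 0.39 ± 0.14 with a limma adjusted p of 0.384.

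In the TCA cycle, none of the 18 genes passed the adjusted test, where 5.1% of all genes tested passed. A fold change above 0 was seen for 12 (66.7%, against 52.3% of all genes tested) and below 0 for 6. The median of 0.06 became -0.03 without shACAT2-1. CS, which condenses acetyl-CoA with oxaloacetate, gave 107.6, 92.3 and 96.1 FPKM in shNC and 111.3, 92.6 and 111.4 FPKM in shACAT2. The groups overlapped almost fully. Its log2 fold change was 0.09 ± 0.12 (SE, n = 3 per group, limma adjusted p = 0.720, 95% interval -0.21 to 0.38).

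Genes of the steps that follow had log2 fold changes from 0.02 to 0.26, against 0.09 for CS. IDH3A, IDH3B and IDH3G, the subunits of the NAD-dependent isocitrate dehydrogenase, had log2 fold changes of 0.19, 0.06 and 0.10, those of IDH3B and IDH3G falling below 0 without shACAT2-1. IDH3A read 5.52, 5.36 and 5.53 FPKM in shNC and 6.62, 6.47 and 6.04 FPKM in shACAT2, without overlap and with a limma adjusted p of 0.221, though 38.2% of its exon length overlaps ACSBG1 on the opposite strand. OGDH, of the 2-oxoglutarate dehydrogenase complex, had 0.02, and the succinyl-CoA ligase genes SUCLA2, SUCLG1 and SUCLG2 had 0.18, 0.24 and 0.05. FH, the fumarase, had 0.10. MDH2, the mitochondrial malate dehydrogenase, had the highest value of the cycle at 0.26 ± 0.16, with 223.3 FPKM in shACAT2-1 but 159.4 and 166.5 FPKM in the other shACAT2 libraries, within the shNC range of 141.5 to 168.8 FPKM.

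Among the partner enzymes, IDH1, ACO1 and ME1 of the cytosol had log2 fold changes of -0.09, -0.08 and -0.06, the mitochondrial IDH2 0.07, and MDH1 of the cytosol 0.17. Except for MDH1, these changed sign under at least 1 alternative. IDH1 and MDH1 did not overlap between groups, IDH1 being lower in shACAT2 and MDH1 higher. ME2, the mitochondrial malic enzyme, gave 6.31, 6.68 and 6.83 FPKM in shNC and 5.22, 5.72 and 6.11 FPKM in shACAT2. Its difference of -0.19 ± 0.09 had a limma adjusted p of 0.263.

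Of the genes that feed or drain the cycle, PC, which carboxylates pyruvate to oxaloacetate, had -0.15 ± 0.16. PCK2, the mitochondrial phosphoenolpyruvate carboxykinase, which draws oxaloacetate from the cycle, gave 28.1, 23.2 and 23.7 FPKM in shNC and 20.4, 15.6 and 13.0 FPKM in shACAT2. The groups did not overlap, and in both the first library was the highest. The log2 fold change was -0.60 ± 0.17 (SE, n = 3 per group, 95% interval -1.01 to -0.20) with a limma adjusted p of 0.0975, of 0.0325 once replicates were blocked by number and of 0.0403 with library-size scaling. PCK2 passed in 6 of 16 alternatives. Without shNC-1, shNC-2 or shNC-3 its limma adjusted p was 0.23, 0.238 and 0.251, and it was 0.241 with shNC-2 and shNC-3 averaged.

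Outside the 43 genes, 90 other genes of the same pathways were listed, of which 70 were tested and 3 passed, or 4.29%, against the same 5.1% of all genes. PDP1 and PDP2 encode the phosphatases that activate pyruvate dehydrogenase, the entry of glycolytic carbon to acetyl-CoA, and they moved in opposite directions. PDP1 rose from 1.83, 1.61 and 1.92 FPKM in shNC to 2.82, 3.81 and 3.70 FPKM in shACAT2 (log2 fold change 0.67 ± 0.12, limma adjusted p = 0.0307). PDP2 fell from 6.95, 6.49 and 7.02 FPKM in shNC to 4.56, 4.58 and 4.66 FPKM in shACAT2 (-0.48 ± 0.08, limma adjusted p = 0.0242). Neither pair of groups overlapped. ELOVL4, an elongase of very long chains, rose from 7.41, 7.28 and 7.86 FPKM in shNC to 11.6, 12.1 and 13.2 FPKM in shACAT2 (0.64 ± 0.09, limma adjusted p = 0.0149).

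At an unadjusted p under 0.05 there were 16 genes of this list, 10 higher and 6 lower, or 22.9% against 23.5% of all genes tested, a share near the background. Among them, and named after their values were seen, was SREBF1, the transcription factor gene of lipid synthesis, at 57.7, 51.5 and 51.8 FPKM in shNC and 47.4, 36.5 and 30.6 FPKM in shACAT2. Those groups did not overlap, and the difference of -0.50 ± 0.17 had a limma adjusted p of 0.134. Of the related regulators listed, SREBF2 had a log2 fold change of -0.04, SCAP -0.09, INSIG1 0.12 and INSIG2 0.02, none past the threshold. HSD17B12 and HACD1, which act in each round of elongation, lay at 0.57 and 0.56 with limma adjusted p of 0.0501 and 0.0503. Blocked by number, 8 genes of the list passed, or 11.4% of those tested against 12.5% of all genes. PDP1, PDP2 and ELOVL4 were joined by HSD17B12 (limma adjusted p = 0.0264), HACD1 (0.0211), SDHB (0.0386) and PDHB (0.0448), and by HADHB (0.0414), all higher in shACAT2. SDHB encodes a succinate dehydrogenase subunit, PDHB one of pyruvate dehydrogenase and HADHB one of the mitochondrial trifunctional protein.

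The levels of the members in shNC ran from a mean of 1.37 FPKM for FADS2 to 392.4 FPKM for SCD among the 41 tested. By FPKM, which is per gene length, the mean in shNC was 151.2 for MDH2, 119.6 for ACLY, 109.4 for FASN and 98.7 for CS, the next after SCD. The shNC ranges of ACLY and FASN overlapped, as did those of FASN and CS, but within each shNC library ACLY was above FASN and FASN above CS. In shACAT2 the mean was 183.1 FPKM for MDH2, 111.2 for ACLY, 105.1 for CS and 84.4 for FASN, and FASN lay below CS in each shACAT2 library, although the ranges overlapped.

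The SE of the log2 fold change ran from 0.08 for IDH3A to 0.27 for ECI1, with 0.25 for ACADVL and 0.23 for SLC25A1. On the scale of FPKM + 1, the 95% interval of 39 of the 41 members lay within a 2-fold change in either direction. ACACA and PCK2 were the exceptions, and for 30 members it lay within 1.5-fold. The added 1 FPKM narrows these intervals for low genes such as ACACB and FADS2. They are therefore not limits on the fold change in FPKM itself. For 33 members the range within shACAT2 was larger than the difference between the group means.

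The shACAT2 libraries differed among themselves more than the shNC libraries did. In shACAT2-3, 36466 genes lay above 0, against 25337 to 27196 in the other libraries, and the part of this in the spread was not tested. The ratio of the highest to the lowest library had a median of 1.27 over members in shACAT2 and 1.15 in shNC, and exceeded 1.5 for 7 members in shACAT2 and for 0 in shNC. ECI1, the isomerase named above, read 60.1, 41.8 and 27.1 FPKM in shACAT2-1, -2 and -3, and ACADVL 27.8, 20.7 and 13.1 FPKM. shACAT2-1 was the highest of its group for 26 of the 41 members.

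This spread moved with base composition. Across the members the difference of shACAT2-3 from shACAT2-1 had a Pearson correlation of -0.793 with the GC content of the longest coding transcript (n = 41 genes, 37.4% to 65.6% GC), and across all tested genes with a coding transcript it was -0.738 (n = 10776). Genes are not independent replicates and share the same libraries, so no p is given. The fold change of shACAT2 against shNC had a correlation of -0.07 with GC content over the members. ACACA has 48.7% GC and CPT1A 50.8%, near the member median of 50.1%, whereas PCK2 (61.6%) and FASN (65.3%) are high. SREBF1, outside the members, has 64.7%. The part of base composition in the other results was not tested beyond the fit that follows.

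**Figure D3:**
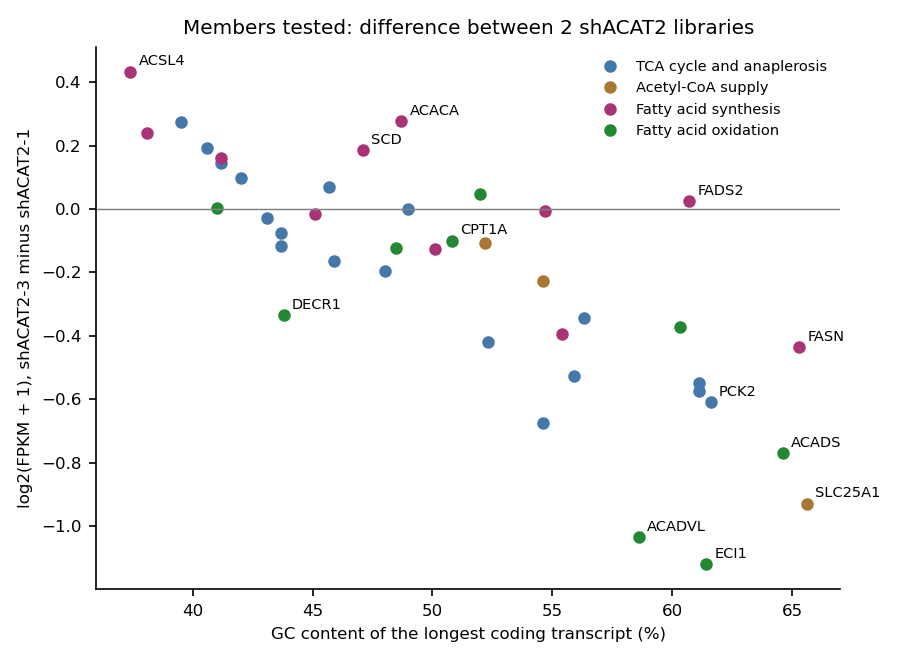
Difference between libraries shACAT2-3 and shACAT2-1 on log2(FPKM + 1) against the GC content of the longest coding transcript, 1 point per member tested (41 genes), coloured by step. Points fall from left to right, with ACSL4 highest and ECI1 lowest (60.1 against 27.1 FPKM).

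A fit added after the data were seen, in which each library's dependence on GC content was removed first, called 2372 genes, or 17.1% of those tested. It called 7 members, also 17.1%, which is the background share. These were ACACA (adjusted p = 0.00492), PCK2 (0.00203), FASN (0.0149), SCD (0.0211), ACSL3 (0.0149) and ME2 (0.0495), all lower, and CPT1A (0.00144), higher, by limma. Limma-voom on recovered fragments called 6 of the 41 members tested, a larger share than the 8.44% of all genes. These were ACACA, ACACB, FASN, SCD and PCK2, lower, and CPT1A, higher. Blocked by replicate number, limma called 4 of the 41 members, a smaller share than the 12.5% of all genes. They were ACACA and PCK2, lower, and CPT1A and ACSL4, higher.

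The calls of ACACA and CPT1A rested on 3 libraries a group. When any 1 of the shNC libraries was left out, neither passed: in order of replicate, the limma adjusted p of ACACA was 0.0569, 0.0734 and 0.0774, and that of CPT1A 0.0545, 0.13 and 0.13. Without shACAT2-2, CPT1A had 0.0804. With shNC-2 and shNC-3 averaged as 1 library, the adjusted p was 0.0736 for ACACA and 0.128 for CPT1A. The fold changes moved little across the 6 libraries left out, from -0.95 to -0.79 for ACACA and from 0.63 to 0.73 for CPT1A. PDP1, PDP2 and ELOVL4 likewise did not pass when any 1 shNC library or shACAT2-2 was left out, with limma adjusted p of 0.0685 to 0.144, nor did PDP1 (0.0656) and PDP2 (0.0505) without shACAT2-3.

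The start-site regions of the 2 members that passed are shown, and the libraries measure RNA only, not binding at these sites. RefSeq windows (GRCh38.p14) from 250 bases before to 50 bases after each start were found for 40 of the 43 members, 57 windows in all. FASN, OGDH and DECR1 had no window and were not searched. The motifs sought on both strands, as 1 match or more per window, were CCAAT, the core of NF-Y sites, TCACNCCAC, an SREBP-type sterol element, and CACGTG, the E-box. None of these motifs contains another. CCAAT stood in 43.9% of the members' windows and 34.6% of 35116 windows of all genes, TCACNCCAC in 1.75% (ACSL1) and 1.13%, and CACGTG in 1.75% (ELOVL5) and 7.26%. A match is a description of letters only. Below, the minus-strand sequences are written 5′ to 3′ and capitals mark CCAAT or its reverse complement ATTGG. FPKM per gene does not tell which ACACA start was used.
ACACA chr17:37406787-37407086: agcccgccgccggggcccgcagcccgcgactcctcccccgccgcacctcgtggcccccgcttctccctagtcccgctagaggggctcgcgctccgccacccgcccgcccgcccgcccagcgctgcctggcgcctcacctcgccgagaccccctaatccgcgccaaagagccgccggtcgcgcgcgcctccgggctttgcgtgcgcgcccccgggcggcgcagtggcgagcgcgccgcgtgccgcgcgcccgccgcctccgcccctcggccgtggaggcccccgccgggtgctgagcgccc
ACACA chr17:37359047-37359346: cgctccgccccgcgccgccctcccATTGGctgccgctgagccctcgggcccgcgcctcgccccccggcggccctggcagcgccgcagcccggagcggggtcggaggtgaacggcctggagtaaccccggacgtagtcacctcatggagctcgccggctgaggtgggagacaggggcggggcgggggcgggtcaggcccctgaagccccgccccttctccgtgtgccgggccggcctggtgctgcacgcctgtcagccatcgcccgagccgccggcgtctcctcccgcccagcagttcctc
ACACA chr17:37299718-37300017: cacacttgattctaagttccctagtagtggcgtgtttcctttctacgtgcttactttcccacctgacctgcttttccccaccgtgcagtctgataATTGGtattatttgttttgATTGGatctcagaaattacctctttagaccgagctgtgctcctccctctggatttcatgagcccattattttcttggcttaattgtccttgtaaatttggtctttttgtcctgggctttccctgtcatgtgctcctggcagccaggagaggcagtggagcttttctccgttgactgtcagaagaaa
CPT1A chr11:68844228-68844527: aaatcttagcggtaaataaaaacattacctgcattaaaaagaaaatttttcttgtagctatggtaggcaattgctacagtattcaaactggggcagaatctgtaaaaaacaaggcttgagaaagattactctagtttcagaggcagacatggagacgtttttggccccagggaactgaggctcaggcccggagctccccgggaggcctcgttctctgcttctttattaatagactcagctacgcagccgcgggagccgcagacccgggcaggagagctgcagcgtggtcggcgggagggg
The first ACACA window, whose start lies 18 bases from the gene's start in the table, and the CPT1A window, 133 bases from it, hold no CCAAT. The ACACA window 47722 bases into the gene holds 1 match and the one 107051 bases into it holds 2.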

How the data were processed

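RNA-seq libraries of HGC-27 cells, 3 shNC and 3 shACAT2, were compared. The groups and replicate numbers came from the sample titles. The authors deposited FPKM values of 58735 genes, with gene lengths and coordinates that all equal GENCODE 29. The submitters' processing notes name HISAT2 2.0.5, featureCounts 1.5.0-p3, DESeq2 1.20.0 and hg38. The strand setting and the treatment of reads with several matches are not given in the sources used here. The authors' FPKM divided by a per-library total 0.957 to 1.07 times the fragments on genes, which sets levels between libraries. FPKM multiplied by gene length gave whole fragments for 100% of values, within 0.05. The number of unused sample columns was 0.

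Only genes whose mean reached 1 FPKM in shNC or in shACAT2 were tested, with limma 3.58.1 in R 4.3.3 using an intensity trend on log2(FPKM + 1), which understates changes of low genes. P-values were adjusted by Benjamini-Hochberg over all 13832 genes tested, with a threshold of 0.05. Single values were also given a two-sided exact permutation test over libraries. The fit was tested on simulated data, in which the changes were larger than those of the members. Its libraries were independent and had no trend with GC content. That test therefore does not show how well changes of the members' size are recovered. Python 3.11.15 with pandas 2.3.3 and numpy 2.4.6 made the tables.

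All members were to be named. The members past the threshold and CS, ACLY, ACSS2, ACACA, FASN, SCD and CPT1A were to be given in every library, as were genes of the wider pathway list past the threshold. Other genes given in full were picked once their values were known. The members and lists were chosen with earlier results of these data known.

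Deviations from the group means correlated over genes between like-numbered libraries (0.445, 0.126 and 0.171 for numbers 1, 2 and 3), and between unlike numbers at -0.308 to 0.198. Number 1 stood out, but shNC-2 with shACAT2-3 (0.198) lay above the like-numbered values of 2 and 3. Pairing by number was thus not settled. The main fit has no replicate block, and the blocked fit is given as an alternative where it changed a call. Alternatives were another pseudocount, no filter, other scalings, the block, limma-voom, averaging shNC-2 with shNC-3 and leaving out each library. Upper-quartile scaling over each library's own genes and a GC correction, a lowess curve per library, were added after the data were seen. 99.9% of the genes tested had a GC content.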

Additional observations from a re-analysis of the deposited data

How the results depend on the processing

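ACACA stayed below 0 and CPT1A above 0 under all 16 alternatives, and 18 of the 41 members kept their sign throughout; the other 23 had log2 fold changes of at most 0.19 in size. The count of members past the threshold was 2 with another pseudocount, without the filter and with the upper quartile of genes above 0 in every library. It was 3 with library-size scaling (with PCK2, and 4 of the pathway list, 865 of all genes), 4 with the replicate block (8 and 1727), 6 with limma-voom (7 and 1167), 7 with the GC correction (9 and 2372), 8 with the GC correction and replicate block (11 and 2919), and 0 when shNC-2 was averaged with shNC-3 (0 and 84), where 1 library fewer enters the fit. The blocked fit changed no call of a member other than PCK2 and ACSL4. Without the filter, 1 gene of the pathway list and 209 of all genes passed, with more genes tested. Over the libraries left out, the counts ran from 0 to 3 for members, 0 to 5 for the pathway list and 59 to 849 for all genes. Members were at 0 without any 1 shNC library, and all genes lowest without shNC-3. A library left out leaves a group of 2.

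Higher genes made up 64.6% of all calls, 55.3% with library-size scaling, 50.3% with limma-voom and 90.5% with the upper quartile over each library's own genes above 0. For this last scaling 36466 genes entered in shACAT2-3 and 25337 to 27196 in the other libraries, and the median of all genes moved to 0.22. It left 0 members, 0 genes of the pathway list and 84 of all genes, ACACA at -0.67 (limma adjusted p = 0.621), CPT1A at 0.89 (0.35) and ACAT2 at -0.79 (0.451). Log2 fold changes that turned positive, none above that shift, were ACO1 0.14, IDH1 0.14, PC 0.048, ME1 0.17, ME2 0.022, ACLY 0.13, FADS1 0.089, FADS2 0.029, CPT2 0.12, ACADM 0.15 and ACADVL 0.12. The TCA median became 0.29.

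The median of fatty acid synthesis was -0.26 with a pseudocount of 0.1, -0.245 with library-size scaling, -0.228 with the upper quartile of shared genes, -0.014 over own genes, -0.323 with limma-voom, -0.165 with the averaged pair and -0.236 with the GC correction, with or without the block. Over the libraries left out it ran from -0.32 to -0.155, that of the TCA cycle from -0.034 to 0.105, that of acetyl-CoA supply from -0.053 to 0.226, and ACAT2 from -1.07 to -0.94; the lowest of the TCA cycle and acetyl-CoA supply came without shACAT2-1.

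Signs of small fold changes turned as follows, none past the threshold. With library-size scaling they were OGDH -0.032, ACSL1 -0.031, ACADS -0.009, HADH -0.036, ECI1 -0.033 and DECR1 -0.011. With the upper quartile of shared genes they were OGDH -0.012, ACSL1 -0.012, HADH -0.019 and ECI1 -0.013. With limma-voom they were OGDH -0.031, SUCLG2 -0.001, ACSL1 -0.033, ACADS -0.010, HADH -0.043, ECI1 -0.029 and DECR1 -0.011. With the mean of shNC-2 and shNC-3 as 1 library they were OGDH -0.011, ACADS -0.018, HADH -0.006 and ECI1 -0.031. With the GC correction, with or without the replicate block, HADH was -0.010. Over the libraries left out the ranges were IDH2 -0.066 to 0.20, IDH3B -0.12 to 0.22, IDH3G -0.071 to 0.20, OGDH -0.080 to 0.091, SLC25A1 -0.053 to 0.41, ELOVL1 -0.032 to 0.18, ACSL1 -0.013 to 0.050, CPT2 -0.11 to 0.005, ACADVL -0.34 to 0.18, ACADS -0.17 to 0.22, HADH -0.054 to 0.075, ECI1 -0.25 to 0.31 and DECR1 -0.060 to 0.11. The cause was not tested. The filter on FPKM left out both ACSS1 and ELOVL5, the latter with at most 21 fragments in a library. Without the filter the log2 fold change of ELOVL5 was -0.22 ± 0.08 (SE) with a limma adjusted p of 0.389.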
